A study of Mus musculus with 32 samples.

Results

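The genes described here are 35 protein-coding genes of 2 chromosome regions that are returned to the +/+ copy number in the aneuploid mice of this series. They were taken from a list of gene symbols and are 35 of the 55401 genes in the count table. The list leaves out other genes of the regions, some of them protein-coding, such as Dynlt1a. In all, 75 genes of the table lie in the first interval and 105 in the second. The first region has 12 members on chromosome 16 from Lipi to Ncam2 (GRCm38, chr16:75540514-81626828), which the duplication Dp(16)1 would add and the deficiency Df(16)8 takes away. The second has 23 members on chromosome 17 from Scaf8 to Pde10a (chr17:3114972-8986648), which the additional chromosome of Ts65Dn would add and the deficiency Df(17)2 takes away. Of these genes 9 on chromosome 16 and 19 on chromosome 17 had enough counts to be tested, 28 in all, and the other 7 are described by their counts.

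RNA depleted of ribosomal RNA was sequenced from the cerebral cortex of 32 mice aged 6 weeks. There were 10 animals of Ts65Dn;Df(17)2, 10 of Dp(16)1/Df(16)8 and 12 of +/+, with equal numbers of females and males by label in each genotype. As background, Ts65Dn mice have a freestanding additional chromosome that joins distal chromosome 16 to the proximal end of chromosome 17, and Dp(16)1 mice have a duplication within chromosome 16. Both aneuploid genotypes carry an additional copy of chromosome 16 from Mrpl39 to Zbtb21. The Lipi to Ncam2 region lies outside the additional chromosome of Ts65Dn, and the chromosome 17 region lies outside the duplication of Dp(16)1, so each region was rearranged in 1 aneuploid genotype and should be as in +/+ in the other. Copy number itself was not measured, and the strain background, the litters and the breeding are not given in the sources used here. Libraries held 5795479 to 11189548 counts. The 9 excitatory cortical neuron markers were found in every library, and the 17 striatal neuron markers varied widely between libraries, as given below. In 31 of the 32 libraries the Xist and Ddx3y counts went with the labelled sex. The exception was Dp(16)1/Df(16)8 replicate 2, labelled female, with 14 counts of Xist and 696 of Ddx3y. Without this library the numbers of members called changed in no comparison, and the number of chromosome 17 members below a fold of 1.5 in Dp(16)1/Df(16)8 was 16 in place of 17.

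As background, the RNA of most genes follows the number of gene copies, so that an additional copy raises it and the loss of a copy lowers it. Many genes of the chromosome 16 region have their human counterparts on chromosome 21, the chromosome in excess in Down syndrome, while the chromosome 17 region corresponds to part of human chromosome 6. That is why trisomy of the chromosome 17 region is regarded as a shortcoming of Ts65Dn as a model. In brain, the regions hold genes with very different roles, among them the chromatin remodelling subunit Arid1b, whose loss of function in people causes a neurodevelopmental syndrome, the adhesion molecule Ncam2, and Pde10a, the cyclic nucleotide phosphodiesterase of striatal projection neurons.

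Genes of both regions were at or near the +/+ level in both aneuploid genotypes, while genes of the segment with an additional copy were about 1.5-fold higher. For each animal, the average log2 CPM in +/+ animals of the same labelled sex was subtracted from its log2 CPM. The fold of a region was then taken as the median over its tested members. CPM are counts scaled for library size and TMM factor. The chromosome 16 members gave 1.04 ± 0.048 (SD, n = 10) in Ts65Dn;Df(17)2 and 1.02 ± 0.077 (n = 10) for Dp(16)1/Df(16)8, against 1.00 ± 0.062 (n = 12) in +/+. The animals ranged from 0.97 to 1.12 in Ts65Dn;Df(17)2 and from 0.915 to 1.14 in Dp(16)1/Df(16)8, against 0.907 to 1.10 in +/+, so that the 3 genotypes overlapped. The Dp(16)1/Df(16)8 animal at 0.915 was replicate 2, whose counts did not go with its label and which was set against +/+ females. The chromosome 17 members gave 1.00 ± 0.032 (n = 10) in Ts65Dn;Df(17)2 and 0.999 ± 0.036 (n = 10) for Dp(16)1/Df(16)8, against 1.00 ± 0.025 (n = 12) in +/+. Their ranges were 0.937 to 1.04 in Ts65Dn;Df(17)2 and 0.925 to 1.05 in Dp(16)1/Df(16)8, against 0.957 to 1.03 in +/+, again with overlap. In the same animals the 77 tested genes from Mrpl39 to Zbtb21 gave 1.5 ± 0.025 in Ts65Dn;Df(17)2 and 1.52 ± 0.025 for Dp(16)1/Df(16)8, against 1.01 ± 0.021 in +/+, and here no animal of an aneuploid genotype fell below 1.47 and no +/+ animal exceeded 1.04. These folds per animal are a description with no test.

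**Figure D1:**
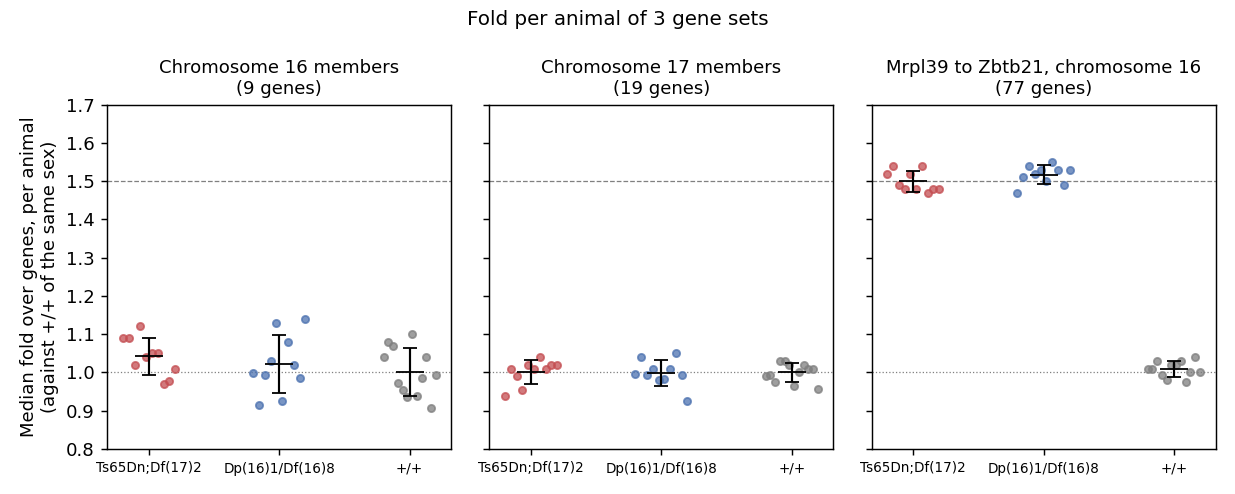
Fold per animal of the chromosome 16 members (left), the chromosome 17 members (middle) and the genes from Mrpl39 to Zbtb21 (right), on a linear axis, for animals of Ts65Dn;Df(17)2, of Dp(16)1/Df(16)8 and of +/+. Points are animals, bars are the mean and SD, and dotted and dashed lines mark folds of 1 and 1.5. In the left and middle panels all animals lie between 0.907 and 1.14, and in the right panel those of the aneuploid genotypes lie between 1.47 and 1.55.

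In the region that each deficiency takes away, no member was called against +/+. In Dp(16)1/Df(16)8, 0 of the 9 tested chromosome 16 members passed an adjusted p of 0.05 in the quasi-likelihood test of edgeR with Benjamini-Hochberg adjustment over all 16042 tested genes, of which 0.573% were called. At an unadjusted p under 0.05 there were 3, Rbm11, Hspa13 and Btg3, where 12.8% of all tested genes passed, and DESeq2 and limma voom called 0. In Ts65Dn;Df(17)2, 0 of the 19 tested chromosome 17 members passed, where 3.97% of all tested genes were called. At an unadjusted p under 0.05 there were 3, Synj2, Tulp4 and Ezr, where 21.8% of all tested genes passed. By limma voom 0 were called and by DESeq2 1, Ezr, where these tools called 4.32% and 6.66% of all tested genes. The median fold of the members was 1.02 on chromosome 16 in Dp(16)1/Df(16)8 and 1.00 on chromosome 17 in Ts65Dn;Df(17)2, beside 1.00 over all tested genes in each comparison. Of the chromosome 16 folds in Dp(16)1/Df(16)8, 5 were above 1 and 4 below, and of the chromosome 17 folds in Ts65Dn;Df(17)2, 10 were above and 9 below.

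The same regions in the other aneuploid genotype, where they were not rearranged, gave values near 1 and 1 call. In Ts65Dn;Df(17)2, 1 of the 9 chromosome 16 members, Hspa13, rose, where 1.75% of all tested genes were called higher. In Dp(16)1/Df(16)8, 0 of the 19 chromosome 17 members passed by edgeR, DESeq2 or limma voom, where edgeR called 0.573% of all tested genes. By edgeR 2, Zdhhc14 and Tulp4, had an unadjusted p under 0.05, where 12.8% of all tested genes had one. No tested member had CPM ranges that did not overlap between an aneuploid genotype and +/+, where 0.337% of all tested genes in Ts65Dn;Df(17)2 and 0.249% in Dp(16)1/Df(16)8 did not overlap. Of the 77 genes with an additional copy, 43 in Ts65Dn;Df(17)2 and 38 for Dp(16)1/Df(16)8 did not overlap with +/+. Other genes annotated between the first and the last member, such as non-coding RNAs, pseudogenes and some protein-coding genes, were not called either: 22 genes were tested in the whole chromosome 16 interval and 32 in that of chromosome 17, with Hspa13 as the 1 call among them.

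Most members were also below the fold of 1.5 that 3 copies against 2 would give in proportion. The same model was used to test each gene against a fold of 1.5, with p adjusted over all tested genes. In Dp(16)1/Df(16)8, 7 of 9 chromosome 16 members were below 1.5, all but Rbm11 and Chodl. In Ts65Dn;Df(17)2, 17 of 19 chromosome 17 members were below it, all but Ccr6 and Pde10a. In the regions that were not rearranged the counts were 8 of 9 in Ts65Dn;Df(17)2, all but Chodl, and 17 of 19 in Dp(16)1/Df(16)8, all but Tmem181a and Pde10a. Of all tested genes 87.5% in Ts65Dn;Df(17)2 and 89.1% in Dp(16)1/Df(16)8 were below 1.5, so the members' shares were near the background. Of the 77 genes with an additional copy, 12 (15.6%) in Ts65Dn;Df(17)2 and 10 (13%) in Dp(16)1/Df(16)8 were below it. The call of Ccr6 in Dp(16)1/Df(16)8 was at the threshold, with an adjusted p of 0.05 after rounding. The members that were not below 1.5 in 1 or both comparisons were thus Rbm11, Chodl, Ccr6, Tmem181a and Pde10a, and each of their intervals against +/+ that held 1.5 also held 1, except that of Rbm11 in Dp(16)1/Df(16)8. No interval reached a fold of 0.5, the value for 1 copy against 2, in either comparison, except that of Ccr6 in Dp(16)1/Df(16)8.

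**Figure D2:**
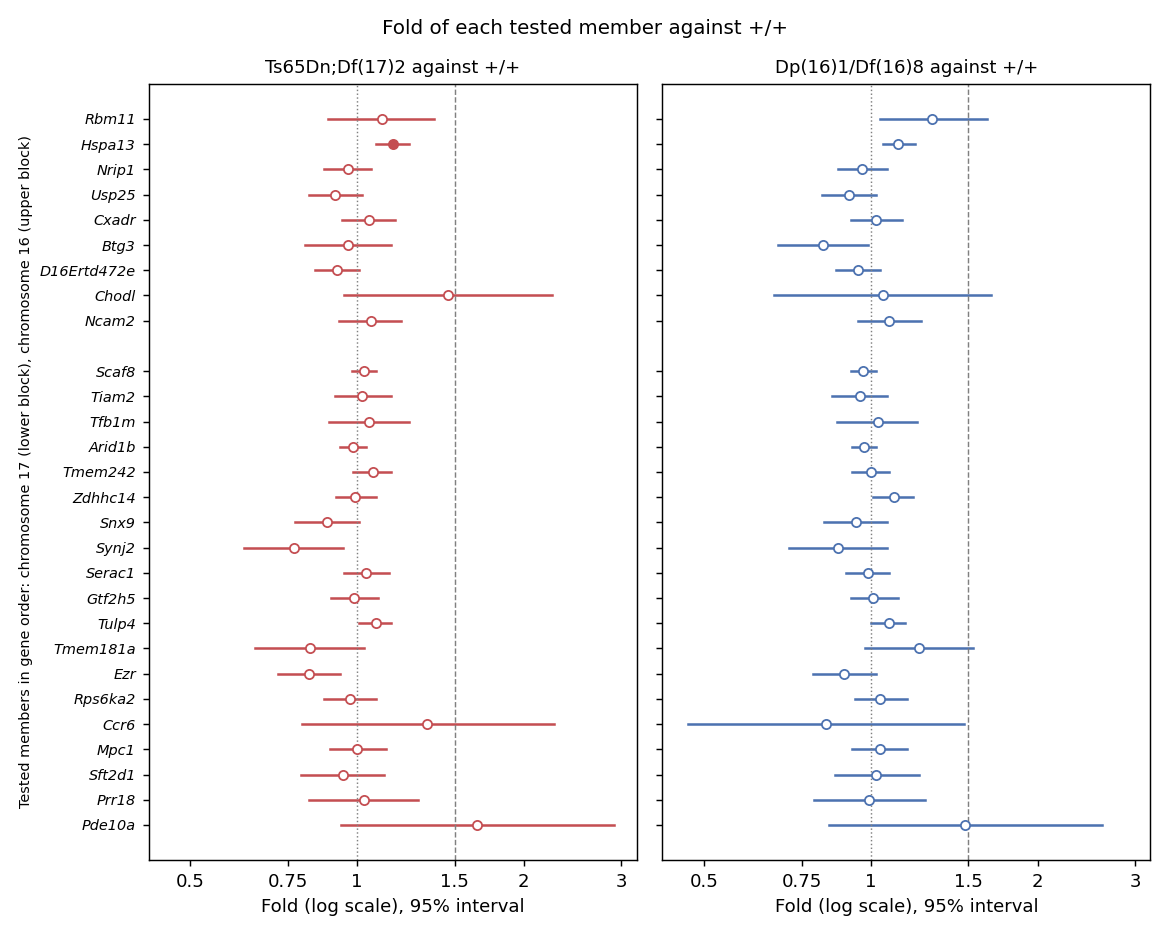
Fold of each tested member against +/+ in Ts65Dn;Df(17)2 (left) and Dp(16)1/Df(16)8 (right), on a log axis, in chromosome order with the 9 chromosome 16 members above and the 19 chromosome 17 members below. Points are fitted folds, lines are 95% intervals, and the filled point is the 1 call (Hspa13, 1.16). Most intervals lie across 1 (dotted line) and to the left of 1.5 (dashed line), and those of Chodl, Ccr6 and Pde10a are the widest on the left.

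On chromosome 16, the chaperone gene Hspa13 was the 1 member called, and it was called in the genotype in which its region was not rearranged. Hspa13 (ENSMUSG00000032932.15, chr16:75745431-75767104, minus strand) encodes a microsome-associated chaperone of the Hsp70 family. Its lowest, median and highest levels were 52.9, 63.4 and 74.4 CPM in Ts65Dn;Df(17)2 and 55.6, 60.6 and 66.6 CPM in Dp(16)1/Df(16)8, against 49.3, 53.8 and 63.3 CPM in +/+. The ranges overlapped, but 9 of 10 Ts65Dn;Df(17)2 animals and 10 of 10 Dp(16)1/Df(16)8 animals were above the +/+ mean. Hspa13 rose by log2 0.21 (SE 0.049) in Ts65Dn;Df(17)2, a fold of 1.16 (95% interval 1.08 to 1.24), with an adjusted p of 0.0133 by the quasi-likelihood test of edgeR with Benjamini-Hochberg adjustment. In Dp(16)1/Df(16)8 it was at log2 0.17 (SE 0.049), a fold of 1.12 (1.05 to 1.2), and did not pass (adjusted p = 0.128). The difference between the aneuploid genotypes was log2 0.04 (SE 0.051) with an adjusted p of 1, so the call in 1 genotype and not in the other is not shown to be a difference between them. Both folds were far below 1.5, with adjusted p of 3.1e-08 in Ts65Dn;Df(17)2 and 3.6e-09 in Dp(16)1/Df(16)8 in the test against 1.5.

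The call of Hspa13 depended on how neighbouring animal numbers were treated. With blocks of neighbouring numbers as terms Hspa13 was at log2 0.23 with an adjusted p of 0.136 by edgeR. Without the 2 Ts65Dn;Df(17)2 animals numbered below 30000 it was at log2 0.17 with an adjusted p of 0.0656. The loss of calls was general. In Ts65Dn;Df(17)2 against +/+, 0.449% of all tested genes were called with blocks and 1.73% without these animals, against 3.97%. Blocks are made from the labels' animal numbers, and whether they mark litters is not stated. Within the block from 32333 to 32359, which holds all 3 genotypes, Hspa13 averaged 67.7 CPM in 3 Ts65Dn;Df(17)2 and 61.4 CPM in 3 Dp(16)1/Df(16)8 animals, against 54.0 CPM in 5 +/+ animals. Within the block from 32368 to 32373 it averaged 58.7 CPM in 5 Ts65Dn;Df(17)2 animals, against 56 CPM in 1 +/+ animal. Hspa13 was called in each of 32 fits that left out 1 library, with adjusted p from 0.00348 to 0.0354.

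**Figure D3:**
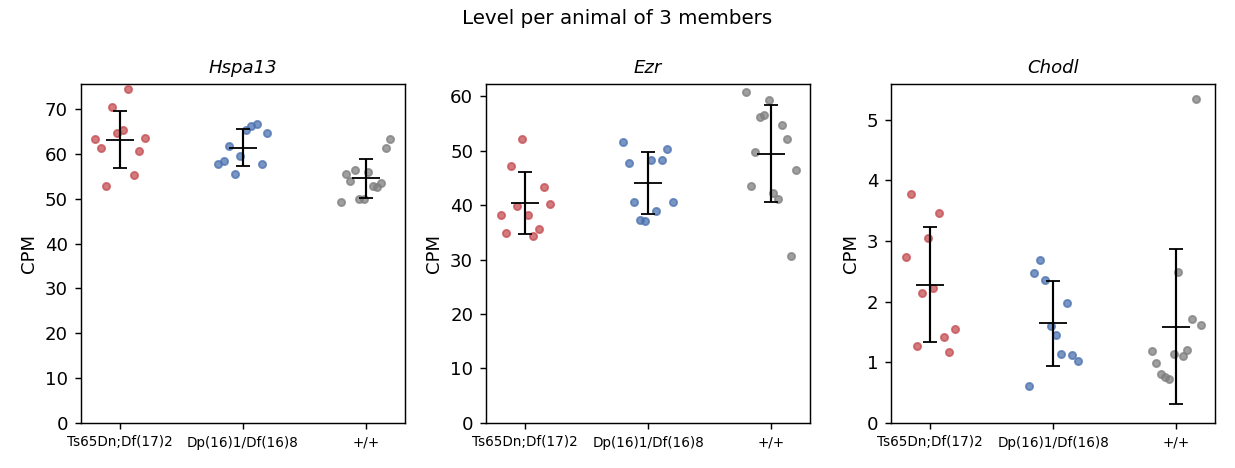
Level in CPM (linear axes from 0) of Hspa13, Ezr and Chodl in each animal of Ts65Dn;Df(17)2, of Dp(16)1/Df(16)8 and of +/+, with the mean and SD as bars. Hspa13 lies mostly above 55 CPM in the aneuploid genotypes, Ezr is lowest in a +/+ animal at 30.6 CPM, and 1 +/+ animal stands apart at 5.34 CPM of Chodl.

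The regulators of transcription, RNA and protein turnover in the chromosome 16 region did not pass in either comparison, with the largest folds in Rbm11 and Btg3 in Dp(16)1/Df(16)8. Nrip1, a corepressor of nuclear receptors, had 78.2, 95.8 and 121 CPM as lowest, median and highest levels in Ts65Dn;Df(17)2 and 76.1, 101 and 111 CPM in Dp(16)1/Df(16)8, against 83.1, 99.1 and 113 CPM in +/+. Usp25, a deubiquitinating enzyme, had 35.6, 39.2 and 45.8 CPM in Ts65Dn;Df(17)2 and 33.4, 39.9 and 52.0 CPM in Dp(16)1/Df(16)8, against 34.6, 41.6 and 55.6 CPM in +/+. The groups overlapped in both genes, and their folds were 0.963 and 0.914 in Ts65Dn;Df(17)2 and 0.965 and 0.912 in Dp(16)1/Df(16)8. Rbm11, an RNA-binding splicing regulator, had 3.95, 4.90 and 6.90 CPM in Ts65Dn;Df(17)2 and 3.25, 6.23 and 8.51 CPM in Dp(16)1/Df(16)8, against 2.77, 4.63 and 6.18 CPM in +/+. Its highest animals were Dp(16)1/Df(16)8 ones, but only 6 of 10 were above the +/+ mean, and the fold of 1.29 (95% interval 1.04 to 1.62) did not pass (adjusted p = 0.321). Btg3, of the antiproliferative BTG family, had 2.14, 2.77 and 3.89 CPM in Ts65Dn;Df(17)2 and 1.46, 2.50 and 3.35 CPM in Dp(16)1/Df(16)8, against 2.34, 2.99 and 3.81 CPM in +/+. With a fold of 0.82 in Dp(16)1/Df(16)8 (95% interval 0.68 to 0.989) it was the lowest of the chromosome 16 members there, and did not pass (adjusted p = 0.363, edgeR). Its exons share 695 bases with those of Cxadr on the other strand, 17.3% of its exon length, and the strand setting of the counting is not stated, so reads of the genes cannot be told apart there. D16Ertd472e, a gene of unknown function, was at 0.92 in Ts65Dn;Df(17)2 and 0.947 for Dp(16)1/Df(16)8 without passing.

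The cell surface genes of chromosome 16 varied more between animals than between genotypes. Ncam2, a neural cell adhesion molecule at the distal end of the region (ENSMUSG00000022762.18, chr16:81200697-81626828, plus strand), had 205, 238 and 319 CPM in Ts65Dn;Df(17)2 and 185, 236 and 338 CPM in Dp(16)1/Df(16)8, against 183, 235 and 297 CPM in +/+. Its folds were 1.06 (95% interval 0.929 to 1.2) in Ts65Dn;Df(17)2 and 1.08 (0.949 to 1.23) in Dp(16)1/Df(16)8. Cxadr, an adhesion protein of cell junctions and the receptor of coxsackievirus and adenovirus, was at 1.05 and 1.02. Chodl, a membrane lectin that is found in a rare class of cortical interneurons that express nitric oxide synthase, had 1.16, 2.19 and 3.78 CPM in Ts65Dn;Df(17)2 and 0.61, 1.53 and 2.68 CPM in Dp(16)1/Df(16)8, against 0.722, 1.16 and 5.34 CPM in +/+. These levels rest on 5 to 41 counts per library. The fold of Chodl was 1.46 (95% interval 0.949 to 2.25) in Ts65Dn;Df(17)2, with an adjusted p of 0.30 by the quasi-likelihood test of edgeR with Benjamini-Hochberg adjustment, and 1.05 (0.668 to 1.65) in Dp(16)1/Df(16)8. Without +/+ replicate 11, the animal at 5.34 CPM, the folds were 1.83 (adjusted p = 0.0301) in Ts65Dn;Df(17)2 and 1.32 (adjusted p = 0.475) in Dp(16)1/Df(16)8.

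The 3 chromosome 16 members below the filter were nearly silent or low in cortex. Lipi, a lipase gene at the proximal end of the region, had 1 count over the Ts65Dn;Df(17)2 libraries and 0 over those of Dp(16)1/Df(16)8, which allows up to 3, against 2 over those of +/+. Tmprss15, which encodes enteropeptidase of the gut, had 3 counts in Ts65Dn;Df(17)2 and 1 for Dp(16)1/Df(16)8, against 0 in +/+. Samsn1, an adaptor of blood cells, was found in every library, with 78 counts in Ts65Dn;Df(17)2 and 58 for Dp(16)1/Df(16)8, against 51 in +/+. These sums are over 10, 10 and 12 libraries. Scaled, Samsn1 averaged 0.955 CPM in Ts65Dn;Df(17)2 and 0.786 CPM in Dp(16)1/Df(16)8, against 0.565 CPM in +/+. No fold is given for these genes.

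Of the chromosome 17 members, the nuclear genes Arid1b and Scaf8 had the narrowest intervals of the fold. Arid1b (ENSMUSG00000069729.14, chr17:4994332-5347656, plus strand) encodes a subunit of the BAF chromatin remodelling complex. It had 153, 167 and 181 CPM as lowest, median and highest levels in Ts65Dn;Df(17)2 and 153, 167 and 175 CPM in Dp(16)1/Df(16)8, against 154, 168 and 188 CPM in +/+. Its fold was 0.983 (95% interval 0.933 to 1.04) in Ts65Dn;Df(17)2 and 0.972 (0.923 to 1.02) in Dp(16)1/Df(16)8, and the test against 1.5 gave adjusted p of 1.4e-15 and 9.1e-16. Scaf8, which binds RNA polymerase and is the most proximal member, had 93.8, 96.5 and 107 CPM in Ts65Dn;Df(17)2 and 83.3, 90.2 and 107 CPM in Dp(16)1/Df(16)8, against 86.1, 92.8 and 102 CPM in +/+. Its fold was 1.03 (0.981 to 1.08) in Ts65Dn;Df(17)2 and 0.968 (0.92 to 1.02) in Dp(16)1/Df(16)8. Gtf2h5, the smallest subunit of the transcription and DNA repair factor TFIIH, had 35, 42.0 and 46.2 CPM in Ts65Dn;Df(17)2 and 36, 40.7 and 50.8 CPM in Dp(16)1/Df(16)8, against 34.9, 41.4 and 52.5 CPM in +/+, with folds of 0.989 and 1.01. The groups overlapped in each of these 3 genes.

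Among the signalling and trafficking genes, Tulp4 was slightly higher in both aneuploid genotypes without passing. Tulp4, of the tubby-like family, had 228, 238 and 280 CPM in Ts65Dn;Df(17)2 and 222, 243 and 268 CPM in Dp(16)1/Df(16)8, against 202, 227 and 266 CPM in +/+. All 10 Ts65Dn;Df(17)2 animals and 9 of 10 Dp(16)1/Df(16)8 animals were above the +/+ mean, and the fold was 1.08 in both, with adjusted p of 0.193 and 0.358. Zdhhc14, a palmitoyltransferase, was at 0.992 in Ts65Dn;Df(17)2 and 1.10 for Dp(16)1/Df(16)8 (adjusted p = 0.936 and 0.327). Rps6ka2, a ribosomal S6 kinase of the growth factor pathway, was at 0.973 and 1.04, and Tiam2, an exchange factor of the GTPase Rac, at 1.02 and 0.956. Snx9, a sorting nexin of endocytosis, was at 0.881 and 0.939, and Sft2d1, of vesicle transport, at 0.942 and 1.02. None of these passed in either comparison by the quasi-likelihood test of edgeR.

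Ezr and Synj2 were lower in Ts65Dn;Df(17)2 and did not pass. Ezr encodes ezrin, which links the actin cytoskeleton to the cell membrane. It had 34.3, 39.1 and 52.2 CPM in Ts65Dn;Df(17)2 and 37.0, 44.2 and 51.5 CPM in Dp(16)1/Df(16)8, against 30.6, 50.9 and 60.8 CPM in +/+. The ranges overlapped, with 1 of 10 Ts65Dn;Df(17)2 animals above the +/+ mean. Its log2 fold change was -0.29 (SE 0.091) in Ts65Dn;Df(17)2, a fold of 0.819 (95% interval 0.72 to 0.931), with an adjusted p of 0.0622 by the quasi-likelihood test of edgeR with Benjamini-Hochberg adjustment. DESeq2, which called 6.66% of all tested genes in this comparison, called it (adjusted p = 0.0353). So did edgeR without +/+ replicate 11 (0.0111), which was the lowest +/+ animal, and without Ts65Dn;Df(17)2 replicate 5 (0.0451). The other alternatives did not call it. In Dp(16)1/Df(16)8 its fold was 0.895 (adjusted p = 0.462). Synj2, a phosphoinositide phosphatase, had 68.3, 86.4 and 100 CPM in Ts65Dn;Df(17)2 and 61.8, 89.2 and 162 CPM in Dp(16)1/Df(16)8, against 68.9, 104 and 163 CPM in +/+. No Ts65Dn;Df(17)2 animal was above the +/+ mean, and the fold was 0.768 (95% interval 0.626 to 0.942, adjusted p = 0.116) in Ts65Dn;Df(17)2 and 0.871 (0.71 to 1.07, adjusted p = 0.572) in Dp(16)1/Df(16)8.

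The mitochondrial genes of the region were close to the +/+ level. Mpc1 (ENSMUSG00000023861.17, chr17:8282904-8297661, plus strand), a subunit of the carrier that brings pyruvate into mitochondria, had 17.4, 19.3 and 22.2 CPM in Ts65Dn;Df(17)2 and 17.0, 19.7 and 26.7 CPM in Dp(16)1/Df(16)8, against 13.9, 18.6 and 25 CPM in +/+. Its folds were 1.00 (95% interval 0.895 to 1.13) and 1.04 (0.923 to 1.16). A non-coding transcript on the other strand, 4930506C21Rik, shares 23.1% of its exon length. Tfb1m, a methyltransferase of mitochondrial ribosomal RNA, was at 1.05 and 1.03, and Serac1, a protein of phosphatidylglycerol remodelling, at 1.04 and 0.989. Tmem242, which takes part in the assembly of ATP synthase, was at 1.07 (0.985 to 1.15) and 1.00 (0.926 to 1.08). All 4 genes were below 1.5 in both comparisons.

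Immune and low members of chromosome 17 could not be resolved. Ccr6, a chemokine receptor of lymphocytes, had 0.72, 1.47 and 2.75 CPM in Ts65Dn;Df(17)2 and 0, 0.884 and 1.88 CPM in Dp(16)1/Df(16)8, against 0, 1.2 and 2.05 CPM in +/+, from 0 to 24 counts per library. Its folds of 1.34 (95% interval 0.794 to 2.27) and 0.829 (0.468 to 1.47) each span a range that holds 1. Below the filter, Cldn20, a tight junction claudin, had 11 counts in Ts65Dn;Df(17)2 and 11 for Dp(16)1/Df(16)8, against 4 in +/+. Its means were 0.136 and 0.135 CPM, against 0.0474 CPM in +/+. Sytl3, of the synaptotagmin-like family, had 6 and 3 counts, against 9 in +/+, with means of 0.0629 and 0.0425 CPM, against 0.098 CPM. Dynlt1b, a dynein light chain, had 28 and 36 counts, against 43 in +/+, with means of 0.326 and 0.496 CPM, against 0.48 CPM. Rnaset2b, a lysosomal ribonuclease, had 22 and 21 counts, against 14 in +/+, with means of 0.274 and 0.27 CPM, against 0.152 CPM. The coding sequence of Dynlt1b differs at 1 of 342 bases from each of Dynlt1a, Dynlt1c and Dynlt1f, and that of Rnaset2b does not differ from Rnaset2a over 780 bases, so reads from the coding sequence can fit several copies, while the rest of the exons was not compared. With the 4 Dynlt1 copies summed before the fit, the fold was 0.979 (95% interval 0.774 to 1.24) in Ts65Dn;Df(17)2 and 1.12 (0.884 to 1.41) in Dp(16)1/Df(16)8, without passing. The summed Rnaset2 copies did not pass the filter.

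Pde10a, at the distal end of the region, was the most abundant member per length by the +/+ mean, and its level varied several-fold between animals of 1 genotype. Pde10a (ENSMUSG00000023868.17, chr17:8525372-8986648, plus strand) averaged 37.3 CPM per kilobase of exon in +/+, against 20.5 for Ncam2, the next member on this scale of level per length, and 0.0118 for Lipi. The first place rests on the mean, because the +/+ mean of Pde10a was 480 CPM and its +/+ median 262 CPM. Those of Ncam2 were 233 and 235 CPM. In CPM its lowest, median and highest levels were 286, 822 and 1150 in Ts65Dn;Df(17)2 and 124, 866 and 1300 in Dp(16)1/Df(16)8, against 149, 262 and 1310 in +/+. All 3 genotypes covered most of the same range, and the median of the +/+ animals was the lowest. The fold was 1.65 (95% interval 0.937 to 2.91, adjusted p = 0.295) in Ts65Dn;Df(17)2 and 1.48 (0.841 to 2.62, adjusted p = 0.561) in Dp(16)1/Df(16)8, so neither 1 nor 1.5 can be told apart from it.

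Levels of Pde10a moved with markers of striatal neurons, which lie below the cortex and are known to express it strongly. The score of a marker list is the mean log2 CPM of its genes. For the 17 striatal markers, all tested, the lowest, median and highest scores were 4.73, 6.30 and 6.75 in Ts65Dn;Df(17)2 and 2.85, 6.28 and 6.89 in Dp(16)1/Df(16)8, against 2.59, 4.44 and 6.89 in +/+. Their summed level was 999 to 4000 CPM in Ts65Dn;Df(17)2 and 390 to 4270 CPM in Dp(16)1/Df(16)8, against 354 to 4510 CPM in +/+. Isl1 had 0 counts in 1 Dp(16)1/Df(16)8 and 2 +/+ libraries, Ido1 in 1 Dp(16)1/Df(16)8 library and Six3 in 1 +/+ library, and the other 14 were found in every library. Over the 32 libraries Pde10a had a Pearson r of 0.97 and a Spearman rho of 0.98 with the score, with permutation p adjusted over 280 correlations of 0.000233 and 4e-04, and r was 0.99 without the 2 libraries farthest from the median score. Within genotypes r was 0.98 in Ts65Dn;Df(17)2, 0.99 among Dp(16)1/Df(16)8 libraries and 0.96 in +/+. With the score as a term in the fit, the fold of Pde10a was 0.997 (adjusted p = 0.992) in Ts65Dn;Df(17)2 and 1.04 (adjusted p = 0.903) in Dp(16)1/Df(16)8, and it was then below 1.5 in both. In bulk tissue, more cells of a type and more RNA per cell cannot be told apart.

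Synj2 and Usp25 moved against the striatal score. Synj2 had r of -0.90 and rho of -0.90 over the 32 libraries (permutation p adjusted over the 280 correlations 0.000233 and 4e-04), with r of -0.86 without the 2 farthest libraries, and within genotypes -0.69 in Ts65Dn;Df(17)2, -0.86 among Dp(16)1/Df(16)8 libraries and -0.94 in +/+. With the score as a term its folds were 0.982 in Ts65Dn;Df(17)2 and 0.969 for Dp(16)1/Df(16)8. Usp25 had r of -0.70 and rho of -0.64 (adjusted permutation p = 0.000233 and 0.00261), with r of -0.58 without the 2 farthest libraries. Within genotypes its r was 0.03 in Ts65Dn;Df(17)2, where the score varied least, -0.75 among Dp(16)1/Df(16)8 libraries and -0.77 in +/+, so the relation did not hold within Ts65Dn;Df(17)2. These 3 were the members whose r and rho with the striatal score both passed after adjustment. With the score of 9 excitatory cortical neuron markers, 6 members had r and rho past an adjusted permutation p of 0.05. The r was positive for Synj2 (0.92), Usp25 (0.77), Nrip1 (0.69) and Ezr (0.59), though that of Ezr was 0.09 within Dp(16)1/Df(16)8. It was negative for Pde10a (-0.79) and Chodl (-0.62), and within Ts65Dn;Df(17)2 these were -0.37 and -0.25. The median excitatory score was 5.71 in Ts65Dn;Df(17)2 and 5.70 for Dp(16)1/Df(16)8, against 6.36 in +/+. The levels and scores come from the same libraries and the same scaling, and the scores of different cell types move together in part.

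**Figure D4:**
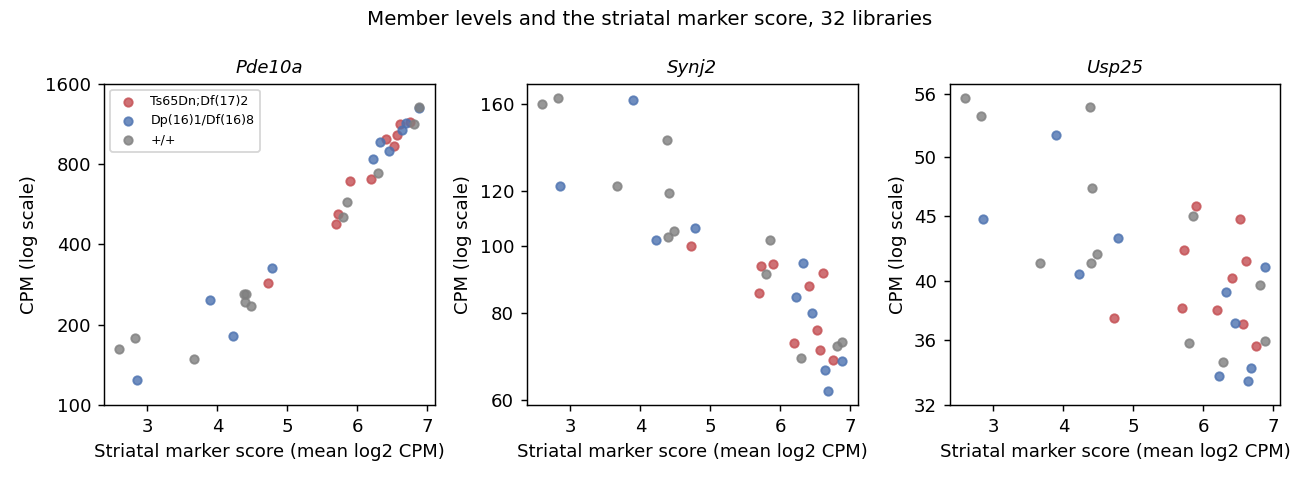
Level of Pde10a, Synj2 and Usp25 in CPM (log axes) against the striatal marker score (mean log2 CPM of 17 markers) in the 32 libraries, coloured by genotype. Pde10a rises with the score (r = 0.97), Synj2 and Usp25 go down with it (r = -0.90 and -0.70), and +/+ libraries make up most of those with a low score.

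Prr18 was the member closest to the oligodendrocyte score, the mean over 8 markers of myelinating cells. It had r of 0.96 and rho of 0.95 over the 32 libraries (permutation p adjusted over the 280 correlations 0.000233 and 4e-04), 0.94 without the 2 farthest libraries, and within genotypes 0.93 in Ts65Dn;Df(17)2, 0.98 among Dp(16)1/Df(16)8 libraries and 0.95 in +/+. Mpc1, Tulp4 and Sft2d1 also had positive correlations past adjustment, with r of 0.63, 0.52 and 0.51, though that of Sft2d1 was -0.14 within Ts65Dn;Df(17)2. Ncam2, Gtf2h5, Cxadr and Serac1 had negative ones, with r of -0.71, -0.67, -0.60 and -0.51. The median oligodendrocyte score was 7.45 in Ts65Dn;Df(17)2 and 7.43 for Dp(16)1/Df(16)8, against 7.32 in +/+, and the folds of Prr18 were 1.03 (95% interval 0.818 to 1.29) and 0.993 (0.789 to 1.25). Over all 10 marker lists, 34 of the 280 correlations passed by both measures, and 0 did for choroid plexus markers.

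Between the aneuploid genotypes, no member of either region was called. In Ts65Dn;Df(17)2 against Dp(16)1/Df(16)8, 0 of 9 chromosome 16 and 0 of 19 chromosome 17 members passed by the quasi-likelihood test of edgeR with Benjamini-Hochberg adjustment, DESeq2 or limma voom, where 0.0499% of all tested genes were called by edgeR. An unadjusted p under 0.05 was seen in 0 chromosome 16 members and in 3 of chromosome 17, Scaf8, Zdhhc14 and Tmem181a, where 4.1% of all tested genes had one. Scaf8 was at 1.07 (95% interval 1.01 to 1.12), with all 10 Ts65Dn;Df(17)2 animals above the Dp(16)1/Df(16)8 mean, and Zdhhc14 at 0.904 (0.83 to 0.984), with none above it. Chodl was at 1.39 (0.889 to 2.17) and Ccr6 at 1.62 (0.92 to 2.85). No member had CPM ranges that did not overlap between these genotypes, where 0.0374% of all tested genes did not. The median fold was 1.00 in both regions.

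Tmem181a had the largest difference between the aneuploid genotypes in proportion to its error, and it is a gene with near-identical copies. Tmem181a (ENSMUSG00000038141.11, chr17:6256860-6308314, plus strand) encodes a transmembrane protein and has the copies Tmem181b-ps and Tmem181c-ps nearby, annotated as pseudogenes. Over the aligned coding sequence Tmem181a is the same as Tmem181b-ps at 1406 of 1413 bases (99.5%) and as Tmem181c-ps at 1329 of 1338 bases (99.33%). To show how little separates them, 120 bases of joined coding exons are given in the direction of transcription, 5′ to 3′, from GRCm38, with capitals at the positions where the 3 copies differ. Among stretches of this length that align without a gap, it was chosen for the most differences between Tmem181a and Tmem181c-ps. The stretch spans introns and lies at chr17:6289017-6290619 on the plus strand for Tmem181a, at chr17:6457066-6458657 on the minus strand for Tmem181b-ps and at chr17:6628835-6630422 on the minus strand for Tmem181c-ps.
Tmem181a: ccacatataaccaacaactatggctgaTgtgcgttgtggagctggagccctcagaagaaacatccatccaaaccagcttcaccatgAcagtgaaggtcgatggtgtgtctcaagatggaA
Tmem181b-ps: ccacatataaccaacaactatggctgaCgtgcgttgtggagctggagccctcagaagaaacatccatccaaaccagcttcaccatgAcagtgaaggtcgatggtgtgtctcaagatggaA
Tmem181c-ps: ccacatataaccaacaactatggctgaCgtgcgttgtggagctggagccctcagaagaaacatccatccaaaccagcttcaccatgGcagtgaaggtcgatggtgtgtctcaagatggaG
Within these bases Tmem181b-ps differs from Tmem181a at 1 position and Tmem181c-ps at 3.

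Libraries with few counts of Tmem181c-ps had many of the other copies. Tmem181a had 25.6, 30.1 and 46.6 CPM as lowest, median and highest levels in Ts65Dn;Df(17)2 and 28.6, 50.5 and 70.2 CPM in Dp(16)1/Df(16)8, against 28.8, 33.9 and 62.0 CPM in +/+. Tmem181b-ps had 27.4, 30.4 and 36.9 CPM in Ts65Dn;Df(17)2 and 24.5, 38.4 and 53.6 CPM in Dp(16)1/Df(16)8, against 25.4, 30.5 and 48.6 CPM in +/+. Tmem181c-ps had 4.86, 10.5 and 12.8 CPM in Ts65Dn;Df(17)2 and 0.732, 9.26 and 15.7 CPM in Dp(16)1/Df(16)8, against 0.781, 14 and 17.0 CPM in +/+. Dp(16)1/Df(16)8 replicates 1, 4 and 8 and +/+ replicate 11 had 0.732 to 1.17 CPM of Tmem181c-ps, and the other 28 libraries 4.86 CPM or more. The same 4 libraries had the 4 highest levels of Tmem181a, 62.0 to 70.2 CPM, and of Tmem181b-ps, 48.6 to 53.6 CPM. The other libraries reached 55.6 and 46.3 CPM. Of those, Dp(16)1/Df(16)8 replicates 2, 7 and 10, +/+ replicates 4, 5 and 8 and Ts65Dn;Df(17)2 replicates 6 and 7 had 44.7 to 55.6 CPM of Tmem181a. They had 4.86 to 10.3 CPM of Tmem181c-ps. The rest had at most 37.8 CPM of Tmem181a and 9.62 CPM or more of Tmem181c-ps. The fold of Tmem181a was 0.672 (95% interval 0.529 to 0.853) in Ts65Dn;Df(17)2 against Dp(16)1/Df(16)8 (unadjusted p = 0.00185, adjusted p = 0.801, edgeR), with no Ts65Dn;Df(17)2 animal above the Dp(16)1/Df(16)8 mean. Against +/+ it was 0.822 (adjusted p = 0.314) in Ts65Dn;Df(17)2 and 1.22 (adjusted p = 0.444) in Dp(16)1/Df(16)8. The sum of the 3 copies was also highest in the same 4 libraries, 111 to 120 CPM, and next in +/+ replicate 8 at 109 CPM. With the 3 copies summed before the fit the fold of Ts65Dn;Df(17)2 against Dp(16)1/Df(16)8 was 0.78 (0.671 to 0.905, adjusted p = 0.815, edgeR). Against +/+ the summed fold was 0.859 (0.744 to 0.992, adjusted p = 0.201) in Ts65Dn;Df(17)2. In Dp(16)1/Df(16)8 it was 1.1 (0.955 to 1.27, adjusted p = 0.571). The exons of Tmem181a also share 580 bases with Dynlt1a on the other strand.

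**Figure D5:**
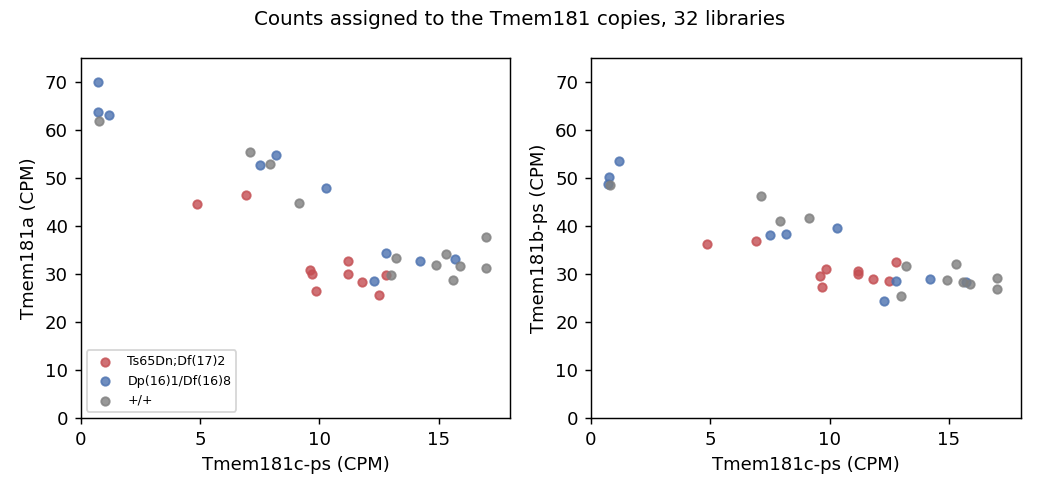
Level in CPM (linear axes) of Tmem181a (left) and Tmem181b-ps (right) against that of Tmem181c-ps in the 32 libraries, coloured by genotype. The 4 libraries with at most 1.17 CPM of Tmem181c-ps, from Dp(16)1/Df(16)8 and +/+, are at the top of both panels, and no Ts65Dn;Df(17)2 library is among them.

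Members with a paralogue in the segment with an additional copy can be set beside it. Tiam1, the paralogue of Tiam2, had folds of 1.71 (95% interval 1.44 to 2.03) in Ts65Dn;Df(17)2 and 1.74 (1.47 to 2.07) in Dp(16)1/Df(16)8. Synj1, the paralogue of Synj2, had 1.46 (1.33 to 1.59) and 1.49 (1.36 to 1.63), and Scaf4, that of Scaf8, 1.39 (1.34 to 1.45) and 1.43 (1.37 to 1.48). All 3 lie between Mrpl39 and Zbtb21 and passed in both comparisons, with adjusted p of 9.7e-05 or less by the quasi-likelihood test of edgeR with Benjamini-Hochberg adjustment, whereas Tiam2, Synj2 and Scaf8 did not pass in either. Of the 22 tested genes in the list of paralogues these 3 rose and 0 fell in each aneuploid genotype, and the others were not called. Of all tested genes 3.97% were called in Ts65Dn;Df(17)2 and 0.573% in Dp(16)1/Df(16)8. Outside the segment, Ncam1, a neural adhesion gene like Ncam2, was at 1.08 and 1.03, Arid1a at 1.01 and 1.00, and Usp28 at 1.01 and 1.02, without passing.

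Genes whose proteins work with those of members mostly did not pass. Of 27 other tested subunits of the BAF complex, 0 rose and 1 fell in Ts65Dn;Df(17)2: the ATPase Smarca4 averaged 181 ± 4.53 CPM in Ts65Dn;Df(17)2 (SD, n = 10) and 192 ± 4.51 CPM in +/+ (n = 12), a fold of 0.942 with an adjusted p of 0.045 by edgeR. Of 9 other subunits of TFIIH, 1 rose and 0 fell: the helicase Ercc2 averaged 17.9 ± 3.26 CPM in Ts65Dn;Df(17)2 and 14.3 ± 2.14 CPM in +/+, a fold of 1.26 with an adjusted p of 0.044. Of all tested genes 3.97% were called in this comparison, so 1 call among 27 BAF genes is near the background, and 1 among 9 is too few to read against it. Both lists had 0 calls in Dp(16)1/Df(16)8, where 0.573% of all tested genes were called. The 5 genes of the ezrin group, 6 of pyruvate entry, 5 ribosomal S6 kinases, 13 of the Hsp70 family and ER stress, 11 partners of Nrip1 and 7 of striatal cyclic nucleotide signalling had 0 calls in any comparison. The median log2 fold change of the BAF genes was -0.04 in Ts65Dn;Df(17)2 and -0.02 for Dp(16)1/Df(16)8, and that of the Hsp70 and ER stress genes -0.07 and -0.02, beside 0.00 over all tested genes in both comparisons. The ER chaperone Hspa5 was at 0.855 in Ts65Dn;Df(17)2 without passing (adjusted p = 0.19). The 7 striatal signalling genes had median log2 fold changes of 0.52 and 0.37, with Ppp1r1b at folds of 1.55 and 1.39 without passing. Ppp1r1b and Adcy5 of this list are also markers of the striatal score.

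Whether the effect of genotype on a member differed by sex was tested with an interaction term. Of the 28 tested members 0 passed by the quasi-likelihood test of edgeR in either aneuploid genotype against +/+, as did 0 of all 16042 genes. An unadjusted p under 0.05 was seen in 1 member in Ts65Dn;Df(17)2 and 2 for Dp(16)1/Df(16)8, and in 787 and 804 of all tested genes. Chodl had the smallest adjusted p of the members in both, 0.94 and 0.82. Sex was taken from the labels, so Dp(16)1/Df(16)8 replicate 2, with 14 counts of Xist and 696 of Ddx3y, was treated as female. The interaction was not run without this library. EdgeR was the only tool run for the interaction.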

How the data were processed

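The series has 1 table of raw counts per gene for 32 libraries, deposited by the authors without normalization. Per the labels' protocols, libraries were made from total RNA depleted of ribosomal RNA. Per the submitters' processing notes, the tools were STAR 2.7.9a, bcl2fastq 2.20 and Subread 1.6.4 (featureCounts), and the builds GRCh38 and GRCm38.p6. Which build served which step, whether counting used strand, and the annotation release are not given in the sources used here.

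The regions and all lists, and with them the members, were chosen with earlier results of these data known. The members are a list of symbols that does not hold every gene of the regions. Coordinates are those of GENCODE M21. Counts were fitted with edgeR 4.0.16 in R 4.3.3: filterByExpr left 16042 of 55401 genes, with 99.7% of the counts, TMM factors scaled the libraries, and the quasi-likelihood model had terms for genotype and sex over all libraries, with Benjamini-Hochberg adjustment at 0.05. An offset of log 1.5 gave the test against a fold of 1.5. Intervals are 95%. Log2 CPM used a prior count of 2. The fits were tested on simulated data. Correlations were tested with 100000 permutations, whose smallest p is 1e-05. Animals are separate by label, but p-values measure only the spread between them.

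Alternatives were DESeq2 1.42.0, limma 3.58.1 with voom, RLE factors, no filter, no sex term, 2 genotypes only, a striatal score or animal number blocks as terms, leaving out animals, and summed gene copies. Levels were given by range for members past the threshold in any setting, for the 3 largest changes per region and comparison, for the ends of the regions and for 6 abundant members, and partner genes past the threshold and the 2 with the largest change per list could be named.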

Additional observations from a re-analysis of the deposited data

Results flagged for a closer look

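Dixon's criterion was applied to 60 groups of 10 animals of the aneuploid genotypes. These were the 28 tested members and the folds per animal of the 2 regions. In 4 groups an animal stood apart from the others. By chance about 1 in 20 groups would have one, so 4 of 60 is near that rate. The +/+ animals were not examined in this way. Ncam2 was at 319 CPM in Ts65Dn;Df(17)2 replicate 4, with the next animal at 261 CPM. Scaf8 was at 107 CPM in Ts65Dn;Df(17)2 replicate 7, where the next was at 98.2 CPM, and at 107 CPM in Dp(16)1/Df(16)8 replicate 1, where the next was at 94.0 CPM. Mpc1 was at 26.7 CPM in Dp(16)1/Df(16)8 replicate 1, with the next at 21.4 CPM. All 4 were the highest animal of their group.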

How the results depend on the processing

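No paired analysis was possible because the labels give animal numbers and no replicate number shared between genotypes. Of 3445 fold changes of members under another setting, 0 reversed after a call, 2 lost their call, 4 gained one, 31 moved by more than their standard error and 3408 did neither, and 134 fold changes that were never called took the other sign. The chromosome 16 members called in Ts65Dn;Df(17)2 against +/+ were 0 with animal number blocks as terms and 0 without the animals numbered below 30000, against 1, and 1 to 2 when 1 library was left out. They were 2 without +/+ replicate 11, where Chodl was added. The chromosome 17 members called in that comparison were 1 by DESeq2 and 0 to 1 when 1 library was left out, with Ezr called without +/+ replicate 11 and without Ts65Dn;Df(17)2 replicate 5. Calls in the other comparisons were 0 under every setting run. Members below a fold of 1.5 numbered 7 to 8 of 9 and 16 to 18 of 19 over the settings run, and the group means of the folds per animal ran from 0.989 to 1.06 over settings other than left-out libraries. With the striatal score as a term the fold of Pde10a was 0.997 in Ts65Dn;Df(17)2 in place of 1.65. Depth limits the low members: Chodl had at most 41 and Ccr6 at most 24 counts in a library.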
